A study of Mus musculus with 6 samples.

Results

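The genes described here encode the chemokines and their receptors. Chemokines are small secreted proteins, in a few cases anchored in the membrane, that guide migrating cells by binding G protein-coupled receptors. They are named CC, CXC, C or CX3C by the spacing of their first cysteines. Members were the protein-coding genes of GENCODE release M21 whose symbols follow the Ccl, Cxcl, Ccr, Cxcr, Cx3cl, Cx3cr, Xcl, Xcr or Ackr (atypical chemokine receptor) pattern, and 44 of the 18951 genes in the count table met this rule. The other 15 such genes of that annotation, Ccr2, Ccr6 and Cxcr3 among them, were not analysed here. The 44 comprised 29 ligands, 11 signalling receptors and 4 atypical receptors, which bind chemokines without the usual G protein signal and clear or display them.

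The samples were 3 si-Rbm22 libraries, from cells transfected with an siRNA against the spliceosome gene Rbm22, and 3 libraries labelled si-Control, from cells given a scrambled siRNA. All 6 came, by their labels, from primary heart muscle cells of C57BL/6 mice at postnatal day 1, cultured for 48 h after transfection. They were dissociated from hearts and checked for purity by staining for cardiac troponin T, and whether hearts were pooled is not stated. By the protocols the 3 samples of a group are biological replicates, but a separate cell isolation for each is not stated. The p-values then measure only how far these samples spread, which may be technical. Total counts lay between 36860678 and 37344860 in the si-Rbm22 libraries and between 34269042 and 35955301 in the si-Control-labelled libraries. Levels are given as CPM, the usual count scaled to library size, here after TMM normalization, which compare a gene across libraries. TMM assumes that most genes do not differ, but 82.0% of tested genes differed between the groups at an adjusted p under 0.05. Small differences between the groups therefore depend on this scaling. Rbm22 mRNA was at 13.5 ± 0.892 CPM in si-Rbm22 and 23.2 ± 1.79 CPM in the si-Control-labelled libraries (SD, n = 3 each).

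The si-Control-labelled libraries went against the label of heart muscle cells. The summed level of 12 cardiomyocyte markers was 26350 to 40700 CPM in si-Rbm22 and 53.3 to 60.7 CPM in the si-Control-labelled libraries, where Myl2, Myl3, Myl7, Nppa, Pln and Mybpc3 had no reads. Tnnt2, which encodes cardiac troponin T, had 167568, 194812 and 135099 reads in si-Rbm22 and 1413, 1568 and 1542 in the si-Control-labelled libraries. All chemokine comparisons below are therefore between libraries that differed in cell markers as well as in siRNA, and the share of either in any difference cannot be told apart. In bulk RNA, fewer cells of a type and less RNA per cell cannot be told apart either. No library could be left out to avoid this, because all 3 si-Control-labelled libraries were alike in it.

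In the immune system, CXC ligands that carry a glutamate-leucine-arginine (ELR) motif attract neutrophils through Cxcr2, and inflammatory CC ligands attract monocytes and lymphocytes. Homeostatic ligands place cells in tissues at rest. In the heart, Cxcl12 and its receptor Cxcr4 take part in the growth of the coronary vessels, and Ccl2 draws monocytes to injured muscle. Fibroblasts, endothelium and muscle precursors can secrete chemokines, as leukocytes do.

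Of the ELR ligand genes, Cxcl1, Cxcl2 and Cxcl3 lie within one array on chromosome 5 and share the same letters of an NF-kB motif upstream of their starts. They were chosen for display after their read counts were seen, and the part of the motif in those counts was not tested. Promoter windows, from 250 bases before to 50 after the start, were taken from RefSeq on build GRCm38.p6 and matched 32 of the 44 members. Cxcl5, Ccl2, Ccl5 and Ccl7 were among those without a window and were not searched. The NF-kB motif searched, on both strands, was GGGA and TTCC separated by any 2 bases. It was found in the windows of 5 of the 32 members (Cxcl1, Cxcl2, Cxcl3, Cxcl10 and Ccr3) and of 441 of 27025 genes in all, or 1.63%. Because the motif is nearly its own reverse complement, the match in Cxcl1, Cxcl2 and Cxcl3 was found on both strands, shifted by a base. The interferon motif, GAAA repeated after any 2 bases, was found for 2 members, Cxcl10 and Cxcl14, and for 3.99% of all genes. The lines below give 120 bases each, 5′ to 3′ on the strand of the gene. The first 3 end at the base before the RefSeq start, and that of Cxcl10 runs from 220 to 101 bases before it. Capitals mark the matches of these motifs.
Cxcl1, chr5:90891125-90891244, plus strand: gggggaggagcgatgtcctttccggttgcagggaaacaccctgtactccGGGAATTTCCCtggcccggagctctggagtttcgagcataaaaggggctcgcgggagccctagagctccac
Cxcl2, chr5:90903779-90903898, plus strand: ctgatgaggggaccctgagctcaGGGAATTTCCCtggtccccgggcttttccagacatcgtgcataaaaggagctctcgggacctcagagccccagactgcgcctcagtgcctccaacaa
Cxcl3, chr5:90785981-90786100, plus strand: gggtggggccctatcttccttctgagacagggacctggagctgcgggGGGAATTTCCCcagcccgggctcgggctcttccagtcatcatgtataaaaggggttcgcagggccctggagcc
Cxcl10, chr5:92348990-92349109, minus strand: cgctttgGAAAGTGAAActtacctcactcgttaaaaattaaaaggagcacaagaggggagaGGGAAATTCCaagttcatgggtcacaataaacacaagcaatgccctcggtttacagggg
The first base of the NF-kB match lies 71, 97 and 73 bases before the start of Cxcl1, Cxcl2 and Cxcl3, and 159 bases before that of Cxcl10. The interferon match of Cxcl10 begins 213 bases before its start. A match is a run of letters and not a measured binding site.

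Cxcl5 and Cxcl1, the 2 of 5 ELR ligands that could be tested, and the CC ligands Ccl5, Ccl9, Ccl7 and Ccl8 were lower in si-Rbm22, while Cxcl16, Ccl2, Ccl25, Ccl20, Ccl27a, Ccl17 and Ccl3 were higher. Of the 44 members, 22 passed the filter on low counts, and 7 of these rose and 12 fell by edgeR's quasi-likelihood test at an adjusted p (Benjamini-Hochberg over all 14621 tested genes) under 0.05. Over all tested genes, 82.0% passed this test, 43.1% higher and 38.9% lower. The 86.4% of tested members called is therefore near the background and is not a result about the family, and a gene that passes the filter through a single group had to differ. The filter asks for 3 libraries at the level of 10 reads. In this way 4 members, Ccl20, Ccl27a, Ccl17 and Ccl3, passed through si-Rbm22 alone, and 2 members, Ccl8 and Ccr10, through the si-Control-labelled libraries alone, so the direction of these calls was fixed by the filter. The 3 libraries of one group did not overlap those of the other for 19 of the 22 members and for 84.2% of all tested genes, again near the background. At least 4-fold changes among the calls were made for 13 of the 22 members and for 26.1% of all tested genes. Ccl20, Ccl27a, Ccl17, Ccl3, Ccl8 and Ccr10, whose direction the filter fixed, are among these 13, so this count is not read as a result about the family. The median log2 fold change was −0.48 over the tested members and 0.05 over all tested genes.

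**Figure D1:**
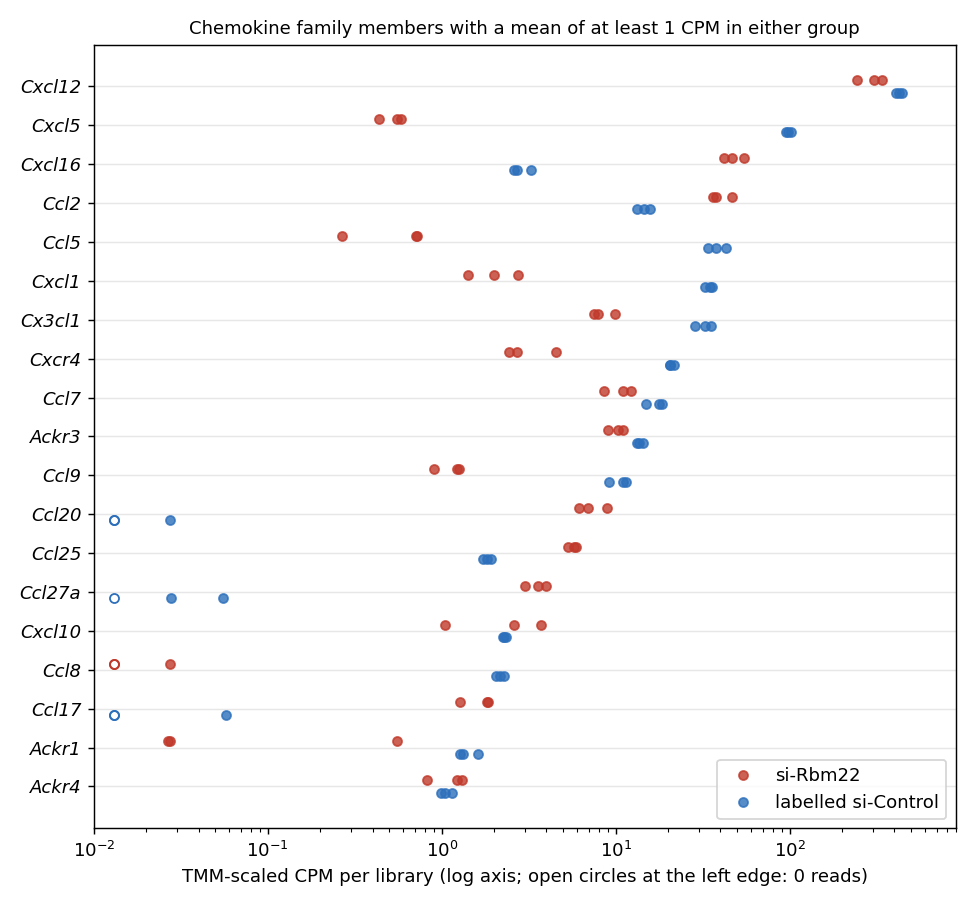
TMM-scaled CPM in each library (horizontal log axis) of the 19 chemokine family members with a mean of at least 1 CPM in either group; filled circles are libraries, open circles at the left edge are libraries with 0 reads, red is si-Rbm22 and blue the si-Control-labelled libraries. The groups overlap for Cxcl10 and Ackr4 and are apart for the other 17.

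The ELR ligands were lower in si-Rbm22 where they could be tested. Cxcl5, a neutrophil attractant of epithelial and stromal cells (ENSMUSG00000029371; GRCm38 chromosome 5, 90759360 to 90761624, plus strand), had 16, 20 and 22 reads in si-Rbm22 and 3714, 3462 and 3419 reads in the si-Control-labelled libraries. Its mean level was 0.526 ± 0.0788 CPM in si-Rbm22 and 98.8 ± 3.54 CPM in the si-Control-labelled libraries (SD, n = 3 each). All 3 si-Rbm22 libraries were thus far below the others, with a log2 fold change of −7.54 (SE 0.11, edgeR adjusted p = 7.03e-16). No other member had a smaller p.

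Cxcl1, the mouse keratinocyte-derived neutrophil attractant (chromosome 5, 90891241 to 90893115, plus strand), had 73, 51 and 103 reads in si-Rbm22 and 1188, 1295 and 1205 in the si-Control-labelled libraries. The groups did not overlap, and Cxcl1 fell by 4.06 on the log2 scale (SE 0.16, edgeR adjusted p = 1.12e-10). The other members of this class had few reads and were not tested. Cxcl2, a neutrophil attractant made by activated macrophages, had 3, 0 and 0 reads in si-Rbm22 and none in the si-Control-labelled libraries. Cxcl3 had 1, 0 and 8 reads in si-Rbm22 and none in the others. Cxcl15, a lung chemokine, had no reads in si-Rbm22 and 4, 4 and 2 in the si-Control-labelled libraries. A gene without reads in a group was set at 3 reads over that group, 0.0272 CPM for si-Rbm22 and 0.028 CPM for the si-Control-labelled libraries, and Cxcl15 was by this bound at least 3.42-fold lower. In the si-Control-labelled libraries Cxcl1 had over 1000 reads each, and Cxcl2 and Cxcl3 had none. Whether the NF-kB letters shown above bear on these counts was not tested.

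Among CXC ligands without the ELR motif, Cxcl12 and Cxcl16 went opposite ways. Cxcl12, the stromal ligand of Cxcr4 (ENSMUSG00000061353; chromosome 6, 117168535 to 117181367, plus strand), had 11234, 8811 and 12848 reads in si-Rbm22 and 14857, 15999 and 14827 in the si-Control-labelled libraries. This was 297.9 ± 49.3 CPM in si-Rbm22 and 426.0 ± 15.5 CPM in the others (SD, n = 3 each), a small but non-overlapping difference (log2 fold change −0.52, SE 0.10, edgeR adjusted p = 0.000787). Spread was wider among si-Rbm22 libraries.

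Cxcl16, a transmembrane chemokine that also takes up oxidized lipoprotein (chromosome 11, 70453983 to 70459984, minus strand), had 1533, 1687 and 2041 reads in si-Rbm22 and 95, 119 and 94 in the si-Control-labelled libraries. Each si-Rbm22 library was above every library of the other group, and Cxcl16 rose by 4.05 (SE 0.13, edgeR adjusted p = 1.54e-12). It shares 552 of its 3021 exonic bases with Zmynd15 on the opposite strand, which had 434 reads over si-Rbm22 and 28 over the si-Control-labelled libraries. The strand setting of the counting is not given in the sources used here, so such overlaps leave a count uncertain.

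Cxcl10, an interferon-induced ligand of T cells, did not pass the test. It had 96, 134 and 39 reads in si-Rbm22 and 85, 83 and 78 in the si-Control-labelled libraries (log2 fold change 0.10, SE 0.37, edgeR adjusted p = 0.811). Its si-Rbm22 libraries lay on both sides of the others. Cxcl10 shares 133 exonic bases with Art3 on the opposite strand, which had 16649 reads in si-Rbm22 and 9 in the si-Control-labelled libraries, and its count is uncertain. Cxcl14, a ligand of epithelia and fibroblasts, had 34, 29 and 18 reads in si-Rbm22 and 31, 20 and 20 in the others and did not pass either (log2 fold change 0.16, SE 0.42, edgeR adjusted p = 0.736). Cxcl9, another interferon-induced ligand, had no reads in si-Rbm22 and 2, 3 and 6 in the si-Control-labelled libraries. The B cell attractant Cxcl13 had 12, 11 and 0 reads in si-Rbm22 and 1, 0 and 0 in the others, and neither was tested.

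Of the 6 inflammatory CC ligands that were tested, 2 rose and 4 fell, and the direction of Ccl3 and Ccl8 among these was fixed by the filter. Ccl2, the main monocyte attractant (ENSMUSG00000035385; chromosome 11, 82035571 to 82037453, plus strand), had 1375, 1676 and 1354 reads in si-Rbm22 and 572, 484 and 507 in the si-Control-labelled libraries. All si-Rbm22 libraries were higher, and Ccl2 rose by 1.46 (SE 0.11, edgeR adjusted p = 1.86e-08). Its neighbour Ccl7, which also attracts monocytes and starts 10.1 kb from the start of Ccl2, had 315, 397 and 462 reads in si-Rbm22 and 541, 667 and 619 in the si-Control-labelled libraries. It fell by 0.68 (SE 0.14, edgeR adjusted p = 0.000388), so that the ratio of Ccl2 to Ccl7 in reads per kilobase of exon was 2.70 ± 0.556 in si-Rbm22 and 0.611 ± 0.120 in the si-Control-labelled libraries (SD, n = 3 each).

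Ccl5, a T cell and monocyte attractant (ENSMUSG00000035042; chromosome 11, 83525778 to 83530518, minus strand), had 26, 26 and 10 reads in si-Rbm22 and 1571, 1376 and 1177 in the si-Control-labelled libraries. It fell by 6.08 (SE 0.21, edgeR adjusted p = 8e-11), with no overlap between the groups. Ccl9, a CC ligand of rodents, had 46, 44 and 34 reads in si-Rbm22 and 331, 401 and 400 in the others, and it fell by 3.23 (SE 0.20, edgeR adjusted p = 1.85e-09). Ccl8, a monocyte attractant, had 1, 0 and 0 reads in si-Rbm22 and 78, 83 and 71 in the si-Control-labelled libraries. Its ratio of si-Rbm22 to si-Control was 0.0042 with a 95% counting interval of 0.000106 to 0.0236 (edgeR adjusted p = 1.01e-07). Its fitted log2 fold change was −7.43, and −9.30 without si-Rbm22 replicate 1, which held the single read. Such intervals cover counting error only, because PCR copies of a molecule cannot be told from separate molecules here.

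Ccl3, a macrophage inflammatory protein gene that is low in these data, had 24, 49 and 23 reads in si-Rbm22 and 0, 1 and 1 in the si-Control-labelled libraries. It passed the filter through si-Rbm22 alone, and the ratio was 46.7 (counting interval 12.6 to 391, edgeR adjusted p = 1.93e-05). Its neighbour and close relative Ccl4 had 8, 14 and 22 reads in si-Rbm22 and none in the others, at least 14.3-fold higher, and Ccl6, a CC ligand of myeloid cells, had 9, 20 and 2 reads in si-Rbm22 and none in the others. The eosinophil attractants were scarce. Ccl11 had no reads in si-Rbm22 and 4, 2 and 1 in the si-Control-labelled libraries, and Ccl24 had 0, 0 and 4 reads in si-Rbm22 and none in the others. Ccl4, Ccl6, Ccl11 and Ccl24 did not pass the filter.

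Of the 6 CC ligands of the homeostatic or dual kind, 4 passed the filter and rose, beside 43.1% of all tested genes called higher, but only Ccl25 among them passed through both groups and could have gone either way. Ccl20, the ligand of Ccr6 that epithelia make to attract lymphocytes and dendritic cells (ENSMUSG00000026166; chromosome 1, 83116766 to 83119167, plus strand), had 226, 320 and 260 reads in si-Rbm22 and 0, 1 and 0 in the si-Control-labelled libraries. Pooled over a group, Ccl20 reads were 784.6 times as many per effective library size (counting interval 140.4 to 31030, edgeR adjusted p = 3.99e-10). Ccl27a, a skin chemokine in its best known form, had 131, 143 and 113 reads in si-Rbm22 and 1, 2 and 0 in the others, a ratio of 125.6 (counting interval 42.6 to 612, edgeR adjusted p = 2.52e-08). Without si-Control replicate 2, the fitted log2 fold change was 11.05 for Ccl20, against 9.17 with all libraries, and 7.64 for Ccl27a, against 6.81. Ccl27a has a near-identical copy in Ccl27b, which had 0, 2 and 0 reads in si-Rbm22 and none in the others, and it shares 8 exonic bases with Il11ra1 on the opposite strand, so its count is uncertain.

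Ccl17, a ligand of Ccr4 on T cells, had 68, 46 and 68 reads in si-Rbm22 and 0, 0 and 2 in the si-Control-labelled libraries. The ratio was 88.6 (counting interval 24.2 to 737, edgeR adjusted p = 1.46e-06), and without si-Control replicate 3 the fitted log2 fold change was 8.91, against 6.22 with all libraries. Ccl25, a chemokine of thymus and gut, had 194, 212 and 215 reads in si-Rbm22 and 70, 63 and 63 in the others, with all si-Rbm22 libraries higher (log2 fold change 1.62, SE 0.20, edgeR adjusted p = 3.22e-06). It shares 204 of 7445 exonic bases with Elavl1 on the opposite strand, which had 9883 reads in si-Rbm22 and 8181 in the si-Control-labelled libraries. The count of Ccl25 is therefore uncertain. Ccl28, a mucosal chemokine, had 0, 0 and 3 reads in si-Rbm22 and 0, 0 and 1 in the si-Control-labelled libraries and was not tested.

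Cx3cl1, which encodes the membrane-anchored fractalkine (chromosome 8, 94772009 to 94782427, plus strand), had 274, 356 and 297 reads in si-Rbm22 and 1274, 1177 and 991 in the si-Control-labelled libraries. It fell by 1.93 (SE 0.12, edgeR adjusted p = 2.24e-09) without overlap. Ccl17 starts 38.4 kb from the start of Cx3cl1 on the same strand and went the other way. The lymphocyte ligand Xcl1 had 0, 0 and 6 reads in si-Rbm22 and 0, 1 and 0 in the others, too few for the test.

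**Figure D2:**
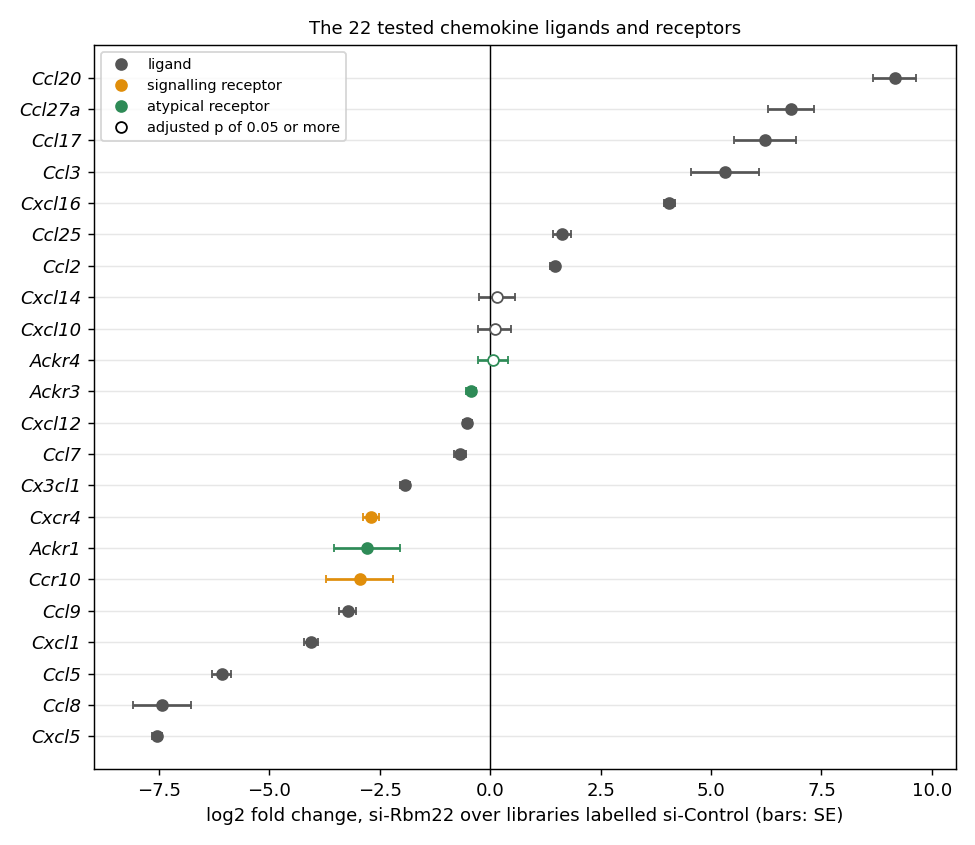
Fitted log2 fold change of si-Rbm22 over the si-Control-labelled libraries (horizontal axis, bars are SE, 3 libraries a group) for the 22 members that passed the low-count filter; grey is ligands, orange signalling receptors, green atypical receptors, and open circles did not pass at an adjusted p of 0.05. Ligands occupy both ends, from Cxcl5 at −7.54 to Ccl20 at 9.17, and the fitted values of Ccl20, Ccl27a, Ccl17, Ccl3 and Ccl8 rest on at most 3 reads in the lower group.

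Of the receptors with enough reads, most were lower in si-Rbm22. Of 15 receptors, 5 passed the filter, 4 fell and 0 rose, beside 38.9% of all tested genes called lower, and Ccr10 among the 4 passed through the si-Control-labelled libraries alone. Cxcr4, the signalling receptor of Cxcl12 (ENSMUSG00000045382; chromosome 1, 128588199 to 128592293, minus strand), had 89, 97 and 170 reads in si-Rbm22 and 788, 744 and 714 in the si-Control-labelled libraries. It was at 3.22 ± 1.14 CPM in si-Rbm22 and 20.9 ± 0.697 CPM in the others (SD, n = 3 each) and fell by 2.70 (SE 0.19, edgeR adjusted p = 4.35e-08). The third si-Rbm22 library was the highest of its group and still far below the other group.

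Ackr3, the atypical receptor that binds and clears Cxcl12 (chromosome 1, 90203980 to 90216751, plus strand), had 380, 395 and 338 reads in si-Rbm22 and 519, 479 and 470 in the si-Control-labelled libraries. It fell by 0.44 (SE 0.12, edgeR adjusted p = 0.00315). Within each library, the ratio of Ackr3 to Cxcr4 in reads per kilobase of exon was 2.31, 2.20 and 1.07 in si-Rbm22 and 0.356, 0.348 and 0.356 in the si-Control-labelled libraries. Ackr3 was thus above Cxcr4 per length in si-Rbm22 replicates 1 and 2 and about level with it in replicate 3. It was below Cxcr4 in every library of the other group. The ratio of Cxcl12 to Ackr3 on the same scale, 12.3 ± 3.22 in si-Rbm22 and 12.8 ± 0.986 in the si-Control-labelled libraries (SD, n = 3 each), differed by less than the spread.

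Ccr10, the receptor of Ccl27a and Ccl28, had 0, 1 and 6 reads in si-Rbm22 and 14, 16 and 25 in the si-Control-labelled libraries. The ratio was 0.124 (counting interval 0.0476 to 0.273, edgeR adjusted p = 0.00237). Without the third si-Rbm22 library its fitted log2 fold change was −4.92, against −2.96 with all libraries. Ackr1, the Duffy receptor of venules and red cells, had 1, 20 and 1 reads in si-Rbm22 and 46, 59 and 46 in the si-Control-labelled libraries. It passed (log2 fold change −2.79, SE 0.74, edgeR adjusted p = 0.00473), but the second si-Rbm22 library stood apart, and without it the log2 fold change was −5.54. Ackr1 also shares 361 of 1405 exonic bases with Cadm3 on the same strand, which had 452 reads in si-Rbm22 and 5078 in the si-Control-labelled libraries, so its count is uncertain.

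Ackr4, which clears Ccl19, Ccl21 and Ccl25, had 30, 47 and 46 reads in si-Rbm22 and 36, 38 and 40 in the si-Control-labelled libraries and did not pass (log2 fold change 0.07, SE 0.34, edgeR adjusted p = 0.856). It shares 479 exonic bases with Acad11 on the opposite strand, which had 5079 reads in si-Rbm22 and 2630 in the si-Control-labelled libraries. The count of Ackr4 is therefore uncertain. Ackr2, which clears inflammatory CC chemokines, had 2, 20 and 2 reads in si-Rbm22, again highest in the second library, and 0, 3 and 1 in the others.

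The signalling receptors of leukocytes were near 0. Cxcr2, the receptor of the ELR ligands, had 9, 0 and 10 reads in si-Rbm22 and none in the si-Control-labelled libraries. Ccr1 had 6, 6 and 25 reads in si-Rbm22 and 0, 1 and 0 in the others, and Ccr3 had 5, 0 and 14 reads in si-Rbm22 and none in the others. Both bind Ccl5, among other ligands. Cx3cr1, the fractalkine receptor of macrophages, had 0, 3 and 9 reads in si-Rbm22 and 0, 0 and 1 in the si-Control-labelled libraries. Cxcr6, the receptor of Cxcl16, had 2, 7 and 10 reads in si-Rbm22 and 12, 4 and 5 in the others, with no separation. The lymphocyte receptors Ccr7, with 1, 0 and 1 reads, Ccr9, with 0, 2 and 0, and Cxcr5, with 1, 4 and 0, had reads in si-Rbm22 libraries and none in the si-Control-labelled libraries. Of the 22 members that failed the filter, 18 (81.8%) had a higher mean in si-Rbm22, as had 66.7% of the 4330 untested genes, and none had more than 44 reads in all.

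Levels were compared between genes only per kilobase of exon. In si-Rbm22, Cxcl12 stood at 36.4 ± 6.03 and Ccl2 at 35.2 ± 4.99 CPM per kilobase of exon (SD, n = 3), which do not differ beyond their spread, followed by Cxcl16 at 15.8 ± 2.08 and Ccl7 at 13.3 ± 2.35, which overlap within their SD. In the si-Control-labelled libraries, Cxcl5 stood at 53.0 ± 1.90 and Cxcl12 at 52.1 ± 1.90, not apart beyond their spread, followed by Ccl5 at 40.0 ± 4.93, Ccl7 at 21.3 ± 2.32, Cxcl1 at 18.3 ± 0.790 and Ccl2 at 12.8 ± 1.07. Cxcl5 was 19th among the 44 members in si-Rbm22 and at the top in the si-Control-labelled libraries. Exon length was taken over all annotated transcripts of a gene, so these levels depend on which transcripts the cells use.

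As shares of the summed ligand level per kilobase, Cxcl12, Ccl2 and Cxcl16 together made up 73.1% ± 1.72 in si-Rbm22 and 30.5% ± 0.800 in the si-Control-labelled libraries. Cxcl5, Ccl5 and Cxcl1 together made up 1.65% ± 0.156 in si-Rbm22 and 51.5% ± 1.87 in the others (SD, n = 3 each). These genes were grouped after their values were seen. The summed level of all ligands, in CPM per kilobase, was 119.6 ± 5.97 in si-Rbm22 and 216.2 ± 3.91 in the si-Control-labelled libraries. Among receptors, Ackr3 made up 54.3% ± 10.2 in si-Rbm22 and 23.6% ± 0.417 in the others, and Cxcr4 made up 31.2% ± 8.01 in si-Rbm22 and 67.0% ± 0.547 in the others.

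**Figure D3:**
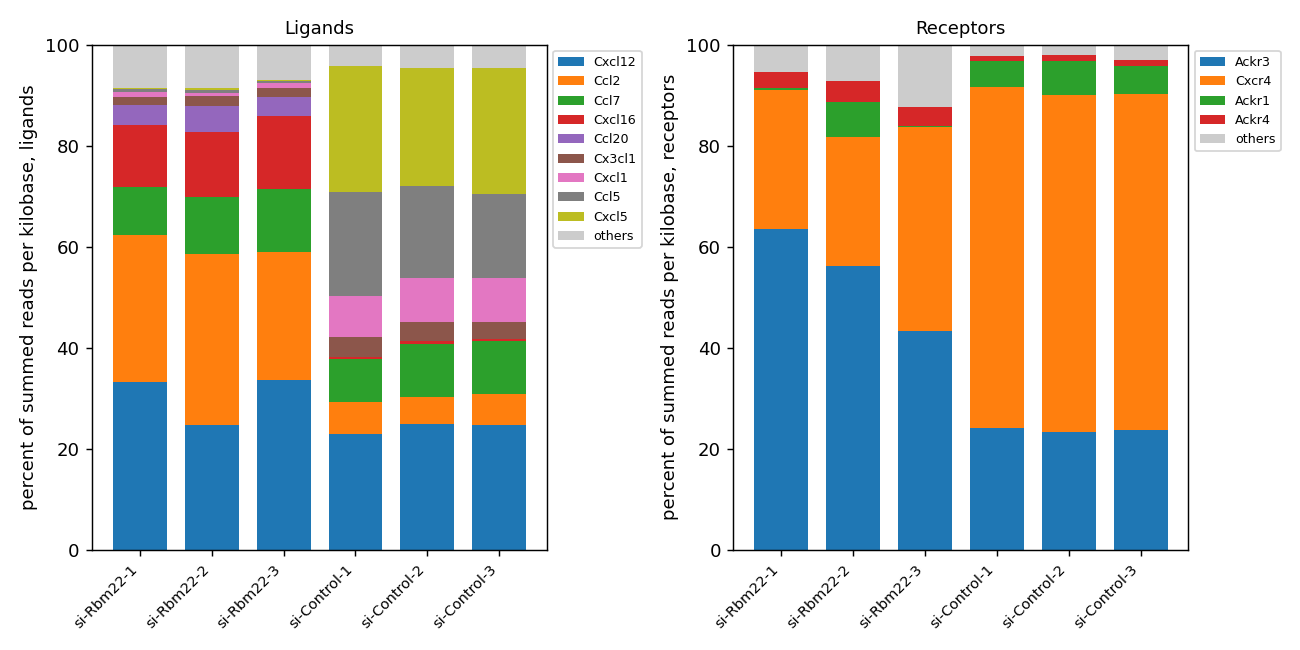
Share of each named gene in the summed reads per kilobase of exon of all 29 ligands (left) and all 15 receptors (right), with 1 bar per library and the remaining members in light grey. The 3 si-Rbm22 bars hold mostly Cxcl12, Ccl2, Cxcl16 and Ccl7, and Cxcl5 and Ccl5 fill a wide band only in the 3 bars labelled si-Control.

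Neighbouring ligand genes did not all go the same way. In the chromosome 5 array, which counts genes less than 200 kb apart, the starts of Cxcl5, Cxcl3, Cxcl15, Cxcl1 and Cxcl2 span 144.5 kb, and the 2 genes with more than 10 reads, Cxcl5 and Cxcl1, both fell. In the first chromosome 11 array, Ccl2 rose, Ccl7 and Ccl8 fell, and Ccl11 lay between them with 7 reads in all. In the second, Ccl5 and Ccl9 fell, while Ccl3 rose and Ccl6 and Ccl4, which were not tested, had reads in si-Rbm22 and none in the si-Control-labelled libraries. Genes of both directions thus lay in the same array in 3 places, counting Cx3cl1 and Ccl17 on chromosome 8. The direction of Ccl3, Ccl8 and Ccl17 was fixed by the filter. Only Ccl2 and Ccl7 were thus called in opposite directions while both were free to go either way.

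**Figure D4:**
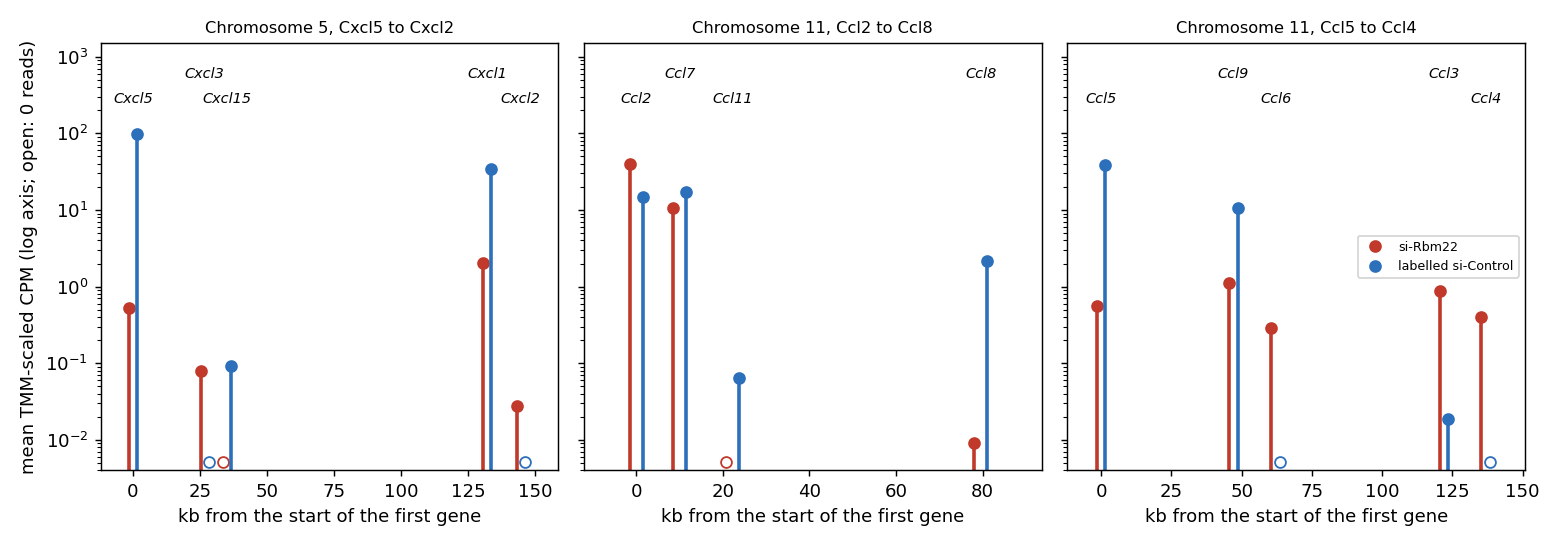
Mean TMM-scaled CPM (vertical log axis, 3 libraries a group) of the members in the 3 arrays of 4 or more ligands, against distance in kb from the start of the first gene; red is si-Rbm22, blue the si-Control-labelled libraries, open circles are groups with 0 reads, and paired stems are shifted sideways for legibility. In the left panel both high genes are lower in si-Rbm22, and each of the other panels holds genes of both orders, with a single switch between neighbours.

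Leukocyte markers also differed between the groups, most of those tested being higher in si-Rbm22, and their part in the chemokine differences was not tested. The direction of a tested marker that passed the filter through a single group was fixed by the filter. Of 14 tested macrophage and monocyte markers, 13 rose and 1, Cd14, fell, beside 43.1% of all tested genes called higher and 38.9% lower. Their summed level was 251.1 to 309.9 CPM in si-Rbm22 and 37.3 to 42.7 CPM in the si-Control-labelled libraries, where Adgre1, C1qb, C1qc, Fcgr1, Tyrobp and Laptm5 were at 0. Of 7 tested pan-leukocyte markers, 6 rose, with a summed level of 13.7 to 18.5 CPM in si-Rbm22 and 0.855 to 1.61 CPM in the others, where Rac2 and Spi1 were at 0. None of 4 neutrophil markers with a count was tested, and their level was 0.0278 to 0.4 CPM in sum in si-Rbm22 and 0.0276 to 0.0288 CPM in the others. Of 2 tested T and NK cell markers 1, Il7r, rose, and all 5 with a count were at 1.83 to 3.22 CPM in si-Rbm22 and 0.966 to 1.07 CPM in the others, and 4 B cell markers, none tested, at 0.278 to 0.683 CPM in si-Rbm22 and 0 to 0.0864 CPM in the others.

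Markers of other cells moved as well, and their part was likewise not tested. Their counts stand beside the same 43.1% of all tested genes called higher and 38.9% lower. Tested markers at 0 in a whole group had their direction fixed by the filter. All 12 endothelial markers rose, with a sum of 339.7 to 386.6 CPM in si-Rbm22 and of 5.22 to 6.43 CPM in the others, with Tie1 and Emcn at 0 there. All 4 tested lymphatic endothelial markers rose, and the list summed to 84.5 to 98.4 CPM in si-Rbm22 and 0 to 0.193 CPM in the si-Control-labelled libraries, with Lyve1, Reln and Mmrn1 at 0 there. All 9 epicardial and mesothelial markers rose and summed to 2459 to 2696 CPM in si-Rbm22 and 50.2 to 53.7 CPM in the others, with Upk3b, Upk1b, Aldh1a2 and Gpm6a at 0 there. Of 10 fibroblast markers 3 rose and 6 fell, and they summed to 9543 to 9659 CPM in si-Rbm22 and 31270 to 34240 CPM in the others, with Tcf21 at 0 there. All 7 tested skeletal muscle precursor markers fell, and the list summed to 366.0 to 526.1 CPM in si-Rbm22 and 1166 to 1237 CPM in the others. Nearly all of the si-Rbm22 sum was Des, at 456.1, 524.8 and 365.0 CPM, and the next highest, Musk, had a mean of 0.725 CPM there. In the others Des was at 668.9, 631.1 and 599.8 CPM. Myod1, Myf5 and Cdh15, which define muscle precursors, were at 0 in si-Rbm22.

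Genes around the chemokines in the pathway moved in both directions. Among 23 genes of chemokine receptor signalling, 12 rose and 9 fell (median log2 fold change 0.20). This count and those of the lists below stand beside 43.1% of all tested genes called higher and 38.9% lower. Ptk2b, a calcium-activated tyrosine kinase, rose by 1.55 (SE 0.07), and the receptor kinase gene Grk3 had no reads in the si-Control-labelled libraries and was at least 433.8-fold higher. Elmo1, which activates Rac downstream of chemokine receptors, fell to 8.82 ± 0.946 CPM in si-Rbm22, against 201.6 ± 8.72 CPM in the others (SD, n = 3 each), and the phospholipase gene Plcb3 fell by 2.35 (SE 0.07). Of 12 tested genes for chemokine proteases and heparan sulfate presentation, 5 rose and 7 fell. Dpp4, the peptidase that trims and inactivates Cxcl12, was at 140.4 ± 18.6 CPM in si-Rbm22 and 0.0184 ± 0.0319 CPM in the others, where it had 2 reads in all, a ratio of 7540 (counting interval 2087 to 62260). Adam10, which sheds Cxcl16 and fractalkine, rose by 1.12 (SE 0.06), the gelatinase gene Mmp2 fell by 3.83 (SE 0.08) and the syndecan gene Sdc1 by 2.37 (SE 0.06).

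Of 15 tested NF-kB pathway genes, 3 rose and 9 fell (median −0.35), beside 43.1% of all tested genes called higher and 38.9% lower. Birc3, which restrains cell death, rose by 7.12 (SE 0.27) and the kinase gene Chuk by 0.49 (SE 0.06), while Nfkb2 fell by 1.09 (SE 0.06) and Traf2 by 0.98 (SE 0.07). Of 19 tested inflammatory cytokine and receptor genes, 6 rose and 12 fell (median −0.42). The interferon gamma receptor gene Ifngr2 rose by 1.80 (SE 0.06) and the cytokine gene Lif by 2.24 (SE 0.13), and Tlr2, a sensor of bacterial lipoprotein, fell by 3.57 (SE 0.09) and Il33 by 2.16 (SE 0.10). Il1b and Tnf, 2 inducers of chemokines named after their values were seen, had 1 and 5 reads over si-Rbm22 and 5 and 1 reads over the si-Control-labelled libraries and were not tested.

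Of 15 tested interferon-stimulated genes, 8 rose and 2 fell (median 0.72), beside 43.1% of all tested genes called higher and 38.9% lower. Rsad2, an antiviral enzyme gene, rose by 3.73 (SE 0.50) and Gbp2 by 1.46 (SE 0.20), while Irf1, a transcription factor, fell by 1.45 (SE 0.06) and Ifit2 by 0.91 (SE 0.08). Of 11 tested leukocyte adhesion genes, 9 rose and 2 fell (median 4.46). Icam1, a ligand of leukocyte integrins, had a ratio of 547 (counting interval 278 to 1268), and the selectin gene Selp rose by 7.12 (SE 0.42). The hyaluronan receptor gene Cd44 fell by 1.83 (SE 0.10) and Jam2 by 1.56 (SE 0.08). Each of these passed at an edgeR adjusted p under the threshold. Grk3, Dpp4 and Icam1, nearly without reads in the si-Control-labelled libraries, passed the filter through si-Rbm22 alone, so the direction of their calls was fixed. The same holds for any other listed gene that passed through a single group. Endothelial markers rose in the same libraries, and their part in the differences of the adhesion genes was not tested.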

How the data were processed

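Read counts per Ensembl gene for 6 libraries were used as the authors deposited them, without normalization. Per the submitters' processing notes, the tools were HTSeq, HISAT2, fastp and DESeq2 and the build GRCm38. Which annotation release and strand setting were used is not given in the sources used here. Of the 18951 gene identifiers, 18856 matched GENCODE M21 (GRCm38). Groups came from the sample titles. No 2 libraries of a group agreed within sampling noise (chi-square per degree of freedom 4.52 to 30.9). The si-Rbm22 replicate 3 stood apart, at 30.1 against replicate 1 and 30.9 against replicate 2, where replicates 1 and 2 gave 10.5.

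Differential expression was tested over all genes with edgeR 4.0.16 in R 4.3.3 (TMM, filterByExpr, robust quasi-likelihood fit, group as the only term, Benjamini-Hochberg adjustment). A positive log2 fold change is higher in si-Rbm22. The SE was obtained as the size of the log2 fold change over the root of F. Ratios with 95% intervals (conditional exact binomial) pool the reads of a group. The procedure was tested on simulated counts in which few genes were changed, unlike these data, so that test does not cover differences this broad. Alternatives were RLE scaling, other filters, DESeq2 1.42.0, limma-voom (limma 3.58.1), a replicate block and each library left out.

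Members were named with their reads or level, and 1 is not reported here. Of each pathway list, the 2 smallest p of each direction were named. The members and lists were chosen with earlier results of these data known.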

Additional observations from a re-analysis of the deposited data

How the results depend on the processing

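The 19 chemokine calls kept their direction and stayed past the threshold in every alternative that tested them, and only 10 members were left with 10 CPM in 3 libraries. There 2 members were called higher. Without a filter on low counts, and by the DESeq2 Wald test, 14 were higher in each case, because members that the main filter removed, Ccl4, Ccl6, Cxcl13, Ccr1, Ccr3 and Cxcr2 among them, were then tested and called. Members called lower were 14 without the filter, which added Cxcl9 and Cxcl15, and 12 by DESeq2. With a library left out, 7 to 9 members were higher and 12 lower, and over all genes 6229 to 6407 were higher and 5493 to 5908 lower.

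Values that were not called changed sign in 6 fits. The log2 fold change of Ackr4 was −0.061 without si-Rbm22 replicate 2 and −0.01 without replicate 3, and with 1 library left out it ran from −0.061 to 0.24. That of Cxcl10 was −0.093 by limma-voom and −0.033 with the replicate block, and with 1 library left out it ran from −0.33 (without si-Rbm22 replicate 2) to 0.46. That of Cxcl14 ran from −0.054 (without si-Rbm22 replicate 1) to 0.38. The cause was not tested.

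Among called members, leaving out 1 library moved the fold by more than 1.5 times for Ccl20, Ccl27a, Ccl17, Ccl8, Ackr1 and Ccr10, with the values given beside each. Limma-voom gave Ackr1 −3.87, Ccl20 8.49 and Ccl8 −6.79. The few reads in one group limit these folds.

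With the replicate number as a block, 7 members were called higher and 12 lower, and 6264 genes higher and 5681 lower, so the block changed no chemokine call. Same-numbered libraries shared no deviation (correlation −0.02 to 0.01 across genes), and the numbers were not taken as pairs. RLE scaling moved the median of all genes by 0.02 on the log2 scale, but RLE makes the same assumption as TMM and does not test it.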

Other observations

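Genes next to the family, outside its naming pattern, were also counted. Of 6 tested among 8 listed, 1 rose and 4 fell, beside 43.1% of all tested genes called higher and 38.9% lower. Ccrl2, a receptor-like protein that binds chemerin without signalling, had 188, 225 and 185 reads in si-Rbm22 and 24, 35 and 42 in the si-Control-labelled libraries, and it rose by 2.52 on the log2 scale (SE 0.26, edgeR adjusted p = 5.89e-07). Cmklr1, the signalling receptor of chemerin, went the other way, at 2.12 ± 0.777 CPM in si-Rbm22 and 37.6 ± 1.77 CPM in the si-Control-labelled libraries (SD, n = 3 each; edgeR adjusted p = 1.85e-09). Mif, a cytokine that can bind Cxcr2 and Cxcr4, fell by 1.99 (SE 0.06, edgeR adjusted p = 4.46e-13). The platelet chemokine gene Ppbp, which lies near Cxcl5, had 6, 0 and 1 reads in si-Rbm22 and 16, 19 and 17 in the si-Control-labelled libraries, and its relative Pf4 had 0, 3 and 6 reads in si-Rbm22 and 6, 0 and 0 in the others.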
